A study of Mus musculus with 6 samples.

Results

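The 36 genes examined here encode laminin chains, integrin subunits, the nidogens, fibronectin, perlecan and agrin. They were taken by symbol from a fixed list, and each symbol was matched to its Ensembl gene identifier, so all 36 were found among the 35565 genes of the count table. Of them, 15 encode matrix ligands (10 laminin chains and 5 other proteins) and 21 encode receptor subunits (13 integrin alpha and 8 integrin beta subunits). Gastruloids were sequenced in bulk at day 5, with 3 libraries of Control, also called NT, and 3 of KD-1. Gastruloids are aggregates of embryonic stem cells that are grown in culture and form an elongated body with cells of several germ layers. Both groups derive from TBV2 129/SvP embryonic stem cells (mESCs) and were treated with CHIR99021, a GSK3 inhibitor that activates WNT signalling. According to the study's methods the Control cells carry a non-targeting (NT) construct, whereas the sample labels call them WT. KD-1 is a single clone with a stable knockdown of the lncRNA *T-UCstem1*, so the clone and the knockdown cannot be told apart. The knockdown was not checked from these counts, since the lncRNA was not analysed here.

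Laminins are cross-shaped trimers of an alpha, a beta and a gamma chain that polymerise into the sheet at the base of epithelia, the basement membrane. Nidogens and perlecan link this sheet to the collagen IV network, and agrin ties laminin to the cell surface. Integrins are alpha-beta dimers that hold cells to the matrix: some bind laminin, some bind the RGD motif of fibronectin and vitronectin, and some bind collagen. In the mouse embryo, laminin is needed for the basement membrane under the epiblast, and fibronectin with its receptor is needed for mesoderm and somites.

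Library totals were between 20982249 and 56674906 counts for the Control libraries and between 41180012 and 85561026 for the KD-1 libraries. A library is named below by its depth within its group, and values per library are given in the order lowest, middle and highest depth. Levels are given as CPM, the counts scaled to a common library size after TMM normalization. The limit that a count of 0 allows, taken as 3 counts, was 0.145 CPM in the shallowest library and 0.0345 CPM in the deepest, which covers counting error only. Calls required more than a 1.5-fold difference in either direction and an adjusted p under 0.05 in edgeR's quasi-likelihood test, with Benjamini-Hochberg adjustment over 15110 genes. In all, 37.7% of the tested genes passed, 19.7% with higher and 18.1% with lower levels in KD-1, and for 70.6% the groups did not overlap. The labels count the 3 libraries of a group as biological replicates of 1 line, and p-values measure the spread between these libraries only.

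Of the 36 members, 33 passed the filter on low counts. Among those, 14 were called lower in KD-1, 8 were called higher and 11 were not called, and the groups did not overlap for 29. The 66.7% called can be read beside the 37.7% of all tested genes as a description only, since a member could pass the filter through the group in which it was high. Their median log2 fold change was -0.64, against -0.01 for all tested genes. The ligands had 3 members called higher and 7 lower of 14 tested, with a median of -0.64. The receptors had 5 higher and 7 lower of 19 tested, with a median of -0.13. With DESeq2, which called 31.9% of the genes it tested, 21 of the 22 called members kept their call. Of the 18 members that reached a mean of 10 CPM in either group, 5 were called higher and 11 lower. This too is a description only: the share called among all genes at that level was not computed. A member could also reach the level through the group in which it was high.

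**Figure D1:**
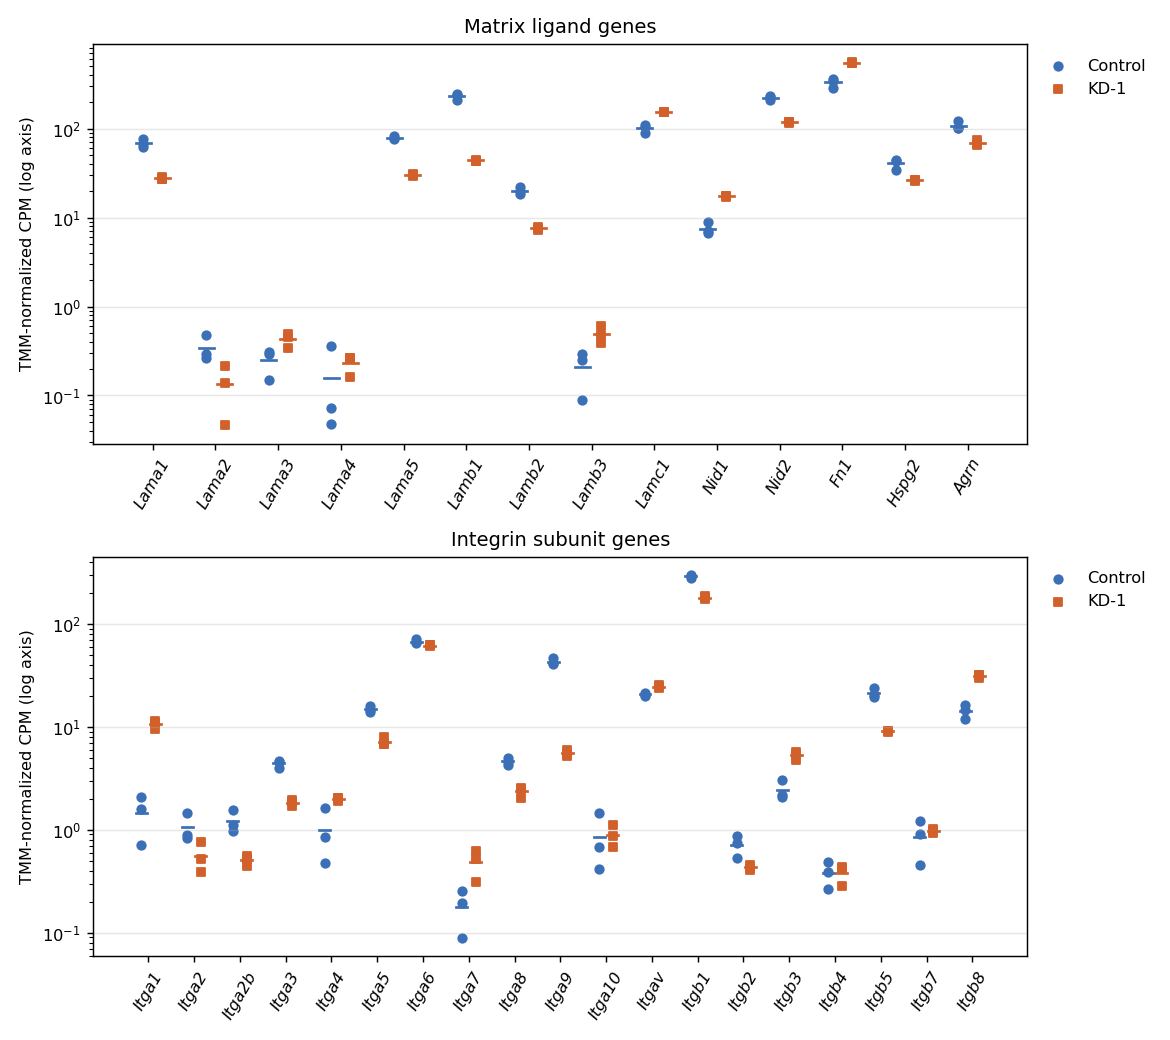
Levels of the tested members in each library as TMM-normalized CPM on a log axis, ligand genes above and receptor genes below, with 1 point per library and a line at the mean of each group (circles Control, squares KD-1). *Lamb1* lay between 211 and 248 CPM in Control and between 43.2 and 44.7 CPM in KD-1, while *Itga1* was at most 2.09 CPM in Control and at least 9.47 CPM in KD-1.

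The promoters of 3 members with wide differences, chosen after their values were seen, are shown first. With only 1 receptor gene among them, ligand and receptor genes cannot be compared as groups. The windows hold the 250 bases before the RefSeq start site in GRCm38.p6, written on the gene's strand. Capitals mark matches on either strand to CACCTG, the E-box bound by SNAI and ZEB repressors, to GGGCGG, the GC box bound by SP factors, or to CTTTGA, the core bound by the TCF and LEF factors of the WNT pathway. The *Lama5* window (chr2:180225860-180226109, minus strand) holds 2 E-boxes and 4 GC boxes. The *Lamb1* window (chr12:31265043-31265292, plus strand) holds 2 GC boxes. The *Itga1* window (chr13:115101965-115102214, minus strand) holds 1 TCF/LEF core. The window of *Lamb2*, which was also examined, holds no match to any of these motifs and is not printed.
Lama5: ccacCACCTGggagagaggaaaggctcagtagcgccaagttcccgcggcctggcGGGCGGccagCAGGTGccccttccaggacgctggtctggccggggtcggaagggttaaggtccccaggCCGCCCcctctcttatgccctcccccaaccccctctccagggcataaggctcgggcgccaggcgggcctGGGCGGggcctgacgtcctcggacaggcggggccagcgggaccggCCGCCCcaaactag
Lamb1: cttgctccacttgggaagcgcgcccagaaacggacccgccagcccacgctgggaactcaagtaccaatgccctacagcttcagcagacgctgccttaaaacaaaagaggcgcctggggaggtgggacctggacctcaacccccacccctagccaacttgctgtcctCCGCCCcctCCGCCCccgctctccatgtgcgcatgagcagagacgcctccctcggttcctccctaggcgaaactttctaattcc
Itga1: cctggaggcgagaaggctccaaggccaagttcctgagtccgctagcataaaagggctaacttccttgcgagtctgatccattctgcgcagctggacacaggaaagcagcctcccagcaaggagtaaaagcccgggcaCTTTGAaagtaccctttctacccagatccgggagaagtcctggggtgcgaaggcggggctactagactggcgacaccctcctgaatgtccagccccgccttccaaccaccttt

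RefSeq windows were matched for 24 of the 36 members, 28 windows in all. The E-box was found in 28.6% of these windows and in 17.2% of all 32851 windows of the same length. The GC box was found in 42.9% of the member windows against 32.7% of all, and the TCF/LEF core in 10.7% against 13.8%. In the 3 printed windows no match overlaps another. Some windows belong to start sites within a gene: in 8 of the 28, among them the only *Itga9* window, the start site lies more than 1000 bases inside the RefSeq gene start, whereas in the printed windows it lies at most 147 bases inside. A match describes the letters in the window and is not evidence of binding.

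Among laminin alpha chains, *Lama1* and *Lama5* carried nearly all of the signal, and both were lower in KD-1. *Lama1* (ENSMUSG00000032796, GRCm39 chr17:68004223-68129642) encodes the alpha chain of the first laminin of the embryo. It had 68.0, 62.7 and 76.0 CPM in the Control libraries and 27.0, 28.9 and 27.5 CPM in the KD-1 libraries. Every KD-1 library was below every Control library, and the gene was 2.48-fold lower (log2 fold change -1.31 ± 0.08 SE, adjusted p = 2.7e-06, edgeR). *Lama5* (ENSMUSG00000015647, chr2:179818166-179867712), the broadly expressed alpha chain of later epithelia, had 76.1, 78.1 and 82.7 CPM in Control and 30.3, 30.7 and 29.3 CPM in KD-1. It was 2.63-fold lower (log2 fold change -1.39 ± 0.06 SE, adjusted p = 3.9e-07, edgeR), again without overlap. In bulk samples, fewer cells of a type and less RNA per cell cannot be told apart, here and for each result that follows.

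The other alpha chains were near the detection limit. *Lama2*, the muscle laminin chain, had 10, 9 and 16 counts in Control and 9, 6 and 4 in KD-1 (log2 fold change -1.44 ± 0.63 SE, adjusted p = 0.075, edgeR). *Lama3*, the alpha chain of the epidermal basement membrane, had 6, 5 and 17 counts against 19, 15 and 43 (log2 fold change 0.79 ± 0.43 SE, adjusted p = 0.14, edgeR). *Lama4*, found in vessel walls, had 1, 12 and 4 counts against 11, 7 and 23, with overlap between the groups (log2 fold change 0.54 ± 0.70 SE, adjusted p = 0.53, edgeR). None of the 3 was called. Without the middle-depth Control library, *Lama2* (log2 fold change -1.59) and *Lama4* (1.80) passed the threshold. *Lama2* also passed it in limma-voom with all libraries (-1.65, adjusted p = 0.036).

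With *Lama1* and *Lama5* both lower, their shares of the alpha chain pool were close in the groups. Per kb of exon, *Lama1* held 50.5% ± 1.78 (SD, n = 3) of the alpha chain signal in Control and 51.6% ± 0.817 in KD-1. *Lama5* held 49.2% ± 1.76 and 47.4% ± 0.673. Neither share differed beyond the spread (two-sided exact permutation p = 0.5 and 0.2), in a design that cannot go below p = 0.1. *Lama3* held 0.136% in Control and 0.605% in KD-1 without overlap, at the smallest p the design allows (exact permutation p = 0.1, 0.15 after Benjamini-Hochberg adjustment over 9 shares). *Lama4* held 0.0742% and 0.264% at the same p, on few counts, while *Lama2* stood at 0.139% and 0.134% (exact permutation p = 1).

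The beta chains gave the widest fall among the laminins. *Lamb1* (ENSMUSG00000002900, chr12:31315030-31379658), the beta chain shared by the embryonic laminins, had 237, 211 and 248 CPM in Control and 43.7, 43.2 and 44.7 CPM in KD-1. The KD-1 libraries lay close together and far below the lowest Control library. *Lamb1* was 5.29-fold lower (log2 fold change -2.40 ± 0.07 SE, adjusted p = 6.0e-08, edgeR). *Lamb2* (ENSMUSG00000052911, chr9:108356935-108367729), the beta chain of synaptic and kidney laminins, was the weaker of the pair per kb, at 3.29 CPM per kb against 21.6 for *Lamb1* in Control. *Lamb2* had 18.2, 19.8 and 22.1 CPM against 7.87, 7.31 and 7.47 CPM, and was 2.66-fold lower (log2 fold change -1.41 ± 0.10 SE, adjusted p = 4.5e-06, edgeR). Because *Lamb1* fell further, its share of the beta chain signal per kb went from 86.7% ± 1.13 to 75.9% ± 0.847 (SD, n = 3 each), and that of *Lamb2* from 13.2% to 23.0%. *Lamb3*, the epidermal beta chain on chromosome 1, had 6, 3 and 14 counts against 25, 17 and 42 and was not called (log2 fold change 1.23 ± 0.48 SE, adjusted p = 0.051, edgeR).

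The gamma chain moved the other way. *Lamc1* (ENSMUSG00000026478, chr1:153094597-153208774) encodes the gamma chain of most laminins. It had 104, 88.7 and 111 CPM in Control and 155, 154 and 155 CPM in KD-1. The groups did not overlap, and *Lamc1* was 1.53-fold higher in KD-1 (log2 fold change 0.61 ± 0.08 SE, adjusted p = 2.2e-04, edgeR). This lies just past the 1.5-fold threshold, and without the middle-depth Control library the value was 0.52 and the call was lost. *Lamc1* is on chromosome 1, where 40.2% of 871 tested genes were called higher and 7.81% lower, with a median log2 fold change of 0.49. Relative to that median, *Lamc1* stood at 0.12. The part that this chromosome-wide shift has in the *Lamc1* value was not tested. *Lamc3*, the remaining gamma chain of the list, had no count in 5 libraries and 2 counts in 1 KD-1 library and did not pass the filter.

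**Figure D2:**
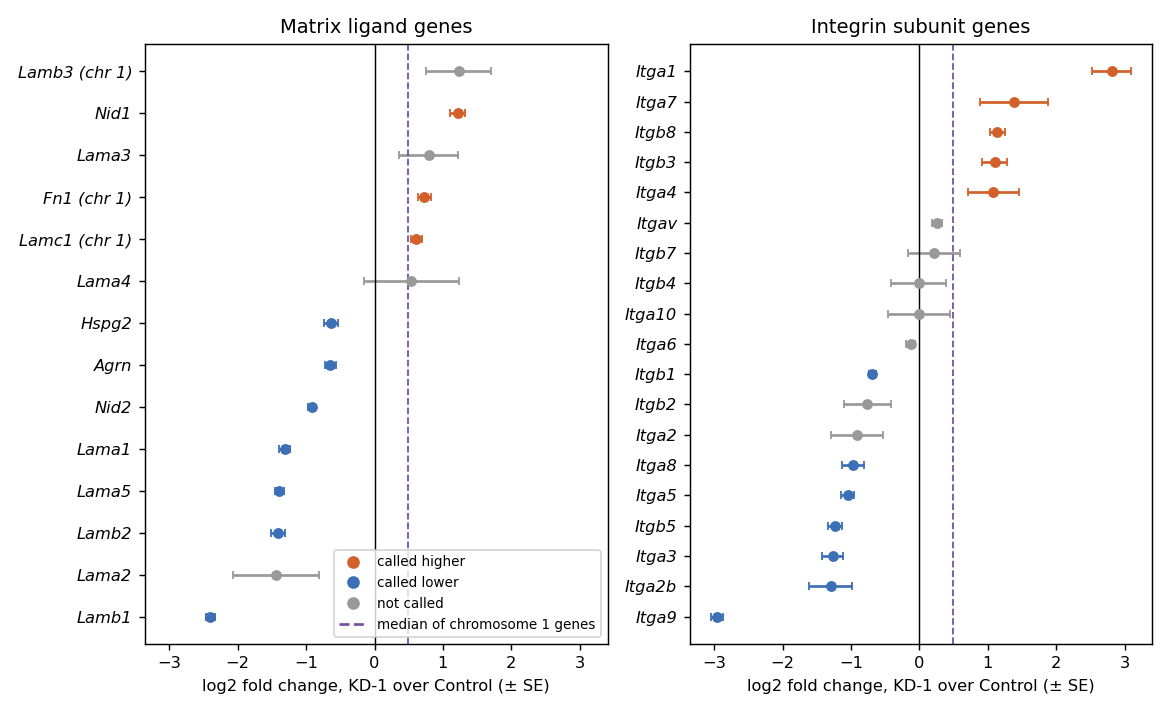
Log2 fold change of each tested member, KD-1 against Control, with its SE as bars, for ligand genes (left) and receptor genes (right) sorted by value and coloured by call. The dashed line is the median of chromosome 1 genes, 0.49. The laminin chains *Lama1*, *Lama5*, *Lamb1* and *Lamb2* lie between -1.31 and -2.40, whereas *Lamc1* lies at 0.61.

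A laminin trimer needs 1 chain of each kind, so the chains were also set against one another within each library. These ratios were chosen after the values had been seen. *Lamb1* to *Lamc1*, per kb, was 2.40, 2.51 and 2.36 in Control and 0.298, 0.296 and 0.304 in KD-1. The order of the chains was opposite in the groups: *Lamb1* exceeded *Lamc1* in all 3 Control libraries and was below it in all 3 KD-1 libraries. The mean ratio was 8.09-fold lower in KD-1 (2.42 ± 0.0767 against 0.299 ± 0.00402, SD, n = 3 each). *Lama1* and *Lama5* together, against *Lamc1*, gave 1.48, 1.69 and 1.54 in Control and 0.397, 0.416 and 0.393 in KD-1, 3.91-fold lower. Each of the 5 ratios computed had the smallest p that the design allows (two-sided exact permutation p = 0.1, adjusted 0.1). A ratio shows unequal change of its genes and does not say which of them changed.

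The nidogens, which bridge laminin and collagen IV, moved in opposite directions. *Nid1* (ENSMUSG00000005397, chr13:13612071-13686860) had 8.83, 6.69 and 7.09 CPM in Control and 17.4, 17.6 and 17.2 CPM in KD-1. It was 2.34-fold higher without overlap (log2 fold change 1.22 ± 0.11 SE, adjusted p = 2.3e-05, edgeR). *Nid2* (ENSMUSG00000021806, chr14:19801298-19861855) was by far the higher of the pair per kb and had 212, 230 and 225 CPM in Control and 120, 115 and 118 CPM in KD-1. It was 1.89-fold lower (log2 fold change -0.92 ± 0.05 SE, adjusted p = 2.1e-06, edgeR). The ratio of *Nid2* to *Nid1* per kb went from 34.7 ± 6.19 to 7.81 ± 0.211 (SD, n = 3 each), so *Nid2* remained the more abundant in every library.

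*Fn1* (ENSMUSG00000026193, chr1:71624673-71692419) encodes fibronectin, the RGD ligand of mesodermal matrix, and had the highest mean CPM of the members in each group, without regard to gene length. Per kb in Control, *Fn1* (20.9 CPM) was below *Itgb1* (48.8), *Nid2* (34.2) and *Lamb1* (21.6). Per kb in KD-1, *Fn1* (34.8) was the highest, followed by *Itgb1* (30.1). *Fn1* had 344, 286 and 364 CPM in Control and 547, 560 and 548 CPM in KD-1. All KD-1 libraries were above all Control libraries, a 1.66-fold rise (log2 fold change 0.73 ± 0.09 SE, adjusted p = 1.1e-04, edgeR) that kept its call whichever library was left out (0.64 to 0.81). *Fn1* is also on chromosome 1 and stood at 0.24 relative to that chromosome's median.

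The heparan sulphate proteoglycans of the basement membrane were both lower. *Hspg2* (ENSMUSG00000028763, chr4:137196079-137298231), which encodes perlecan, had 42.7, 34.5 and 44.6 CPM in Control and 26.1, 25.9 and 26.4 CPM in KD-1 (1.55-fold lower, log2 fold change -0.64 ± 0.10 SE, adjusted p = 5.2e-04, edgeR). *Agrn* (ENSMUSG00000041936, chr4:156249740-156282014), which encodes agrin, had 103, 101 and 122 CPM against 68.0, 73.8 and 65.9 CPM (1.57-fold lower, log2 fold change -0.65 ± 0.08 SE, adjusted p = 1.9e-04, edgeR). The groups overlapped for neither gene. Both lie near the threshold: without the deepest Control library each gave -0.56, with an adjusted p under 0.05 but a fold change under 1.5.

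The receptor alpha subunits are given by ligand class. The 3 laminin-binding subunits had 1 called lower, 1 called higher and 1 not called. *Itga6* (ENSMUSG00000027111, chr2:71575960-71689757), the main laminin receptor subunit of epithelial and stem cells, had 71.0, 65.1 and 66.2 CPM in Control and 60.8, 62.3 and 61.8 CPM in KD-1. The KD-1 values were all slightly lower, and the difference was not called (log2 fold change -0.13 ± 0.06 SE, adjusted p = 0.080, edgeR). *Itga3* (chr11:94935296-94967682), its relative in kidney and skin, was weak, with 4.43 ± 0.376 CPM in Control and 1.84 ± 0.134 CPM in KD-1 (SD, n = 3 each), 2.41-fold lower (log2 fold change -1.27 ± 0.15 SE, adjusted p = 1.3e-04, edgeR). *Itga7*, the muscle laminin receptor subunit, had 4, 3 and 14 counts against 13, 27 and 45 (log2 fold change 1.38 ± 0.50 SE, adjusted p = 0.038, edgeR). That call rested on few counts: it was lost in 4 of the 6 fits that left out a library, which were those without the Control library of lowest (1.40) or middle depth (1.06) and without the KD-1 library of middle (1.21) or highest depth (1.35), and with DESeq2 (1.45, adjusted p = 0.063).

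The RGD-binding subunits were lower with 1 exception. *Itga5* (ENSMUSG00000000555, chr15:103252713-103275270), the partner of *Itgb1* in the fibronectin receptor, had 13.8, 15.8 and 14.6 CPM in Control and 6.77, 7.91 and 6.75 CPM in KD-1. It was 2.07-fold lower without overlap (log2 fold change -1.05 ± 0.10 SE, adjusted p = 4.1e-05, edgeR). *Itga8* (chr2:12110900-12307214), the nephronectin receptor subunit, was 1.97-fold lower, at 4.61 ± 0.360 against 2.37 ± 0.284 CPM (SD, n = 3 each, log2 fold change -0.97 ± 0.16 SE, adjusted p = 7.1e-04, edgeR). *Itga2b*, the platelet fibrinogen receptor subunit, was close to 1 CPM in Control and lower in KD-1 (1.22 ± 0.314 against 0.509 ± 0.0532 CPM, log2 fold change -1.30 ± 0.31 SE, adjusted p = 0.0055, edgeR). *Itgav* (ENSMUSG00000027087, chr2:83554403-83637260), a subunit that pairs with several beta subunits, had 21.5, 20.1 and 20.4 CPM against 23.9, 24.5 and 25.4 CPM. It was higher in every KD-1 library, by less than 1.5-fold, and so was not called (log2 fold change 0.26 ± 0.07 SE, adjusted p = 0.0098, edgeR).

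*Fn1* and *Itga5*, ligand and receptor, changed in opposite directions. Relative to the median of chromosome 1, however, *Fn1* stood at 0.24 and was not past the threshold. Per kb, the ratio of *Fn1* to *Itga5* was 8.36, 6.07 and 8.40 in Control and 27.1, 23.8 and 27.3 in KD-1, a 3.43-fold difference between the means with no overlap.

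The widest changes among the 33 tested members were those of *Itga9* and *Itga1*. *Itga9* (ENSMUSG00000039115, chr9:118435722-118730072), a receptor subunit for tenascin, osteopontin and fibronectin with the EDA domain, had 41.8, 46.1 and 40.9 CPM in Control and 5.99, 5.20 and 5.41 CPM in KD-1. All KD-1 libraries were far below the Control range, a 7.78-fold fall (log2 fold change -2.96 ± 0.09 SE, adjusted p = 5.9e-08, edgeR). *Itga4*, its relative on mesodermal and blood cells, was low and called higher, at 1.64, 0.474 and 0.848 CPM against 1.91, 2.05 and 2.02 CPM (log2 fold change 1.08 ± 0.37 SE, adjusted p = 0.032, edgeR). The *Itga4* call was lost without the deepest Control library (1.00) and without any 1 of the KD-1 libraries (1.06 to 1.12).

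*Itga1* (ENSMUSG00000042284, chr13:115089632-115238677), a collagen receptor subunit, had 1.59, 0.711 and 2.09 CPM in Control and 9.47, 11.4 and 10.9 CPM in KD-1. It rose 7.03-fold without overlap (log2 fold change 2.81 ± 0.29 SE, adjusted p = 5.3e-05, edgeR). Exons of *Pelo* and *Mocs2* lie within its span, and reads of overlapping genes may be split uncertainly. The other collagen-binding subunits were low and not called: *Itga2* had a log2 fold change of -0.91 ± 0.38 SE (adjusted p = 0.066, edgeR) and passed the threshold without the middle-depth Control library (-0.99), and *Itga10* stood at -0.01 ± 0.45 SE. *Itga2* also passed the threshold in limma-voom with all libraries (-0.91, adjusted p = 0.041). *Itga11* did not pass the filter, with 7, 7 and 5 counts in Control and 1, 0 and 2 in KD-1. With DESeq2, which was run without that filter, *Itga11* was lower in KD-1, on few counts (log2 fold change -3.59, adjusted p = 0.016).

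The composition of the alpha subunit pool was read from the same counts. Per kb, the laminin-binding class held 37.8% ± 1.31 of the alpha signal in Control and 52.7% ± 0.623 in KD-1 (SD, n = 3 each), mostly *Itga6*, whose own share went from 33.4% to 49.3% while its CPM was not called. The class of *Itga4* and *Itga9* went from 31.6% ± 1.58 to 7.60% ± 0.587. RGD-binding subunits held 28.3% ± 0.727 and 32.9% ± 0.588, with *Itgav* going from 9.43% to 18.2% and *Itga5* from 15.6% to 12.2%. The collagen-binding class went from 2.34% ± 0.736 to 6.82% ± 0.377. None of these 4 class shares overlapped between the groups, each at the smallest p the design allows (two-sided exact permutation p = 0.1, 0.15 after adjustment over 9 shares). Shares within a pool sum to a whole, so a fall of *Itga9* raises the share of the other subunits.

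**Figure D3:**
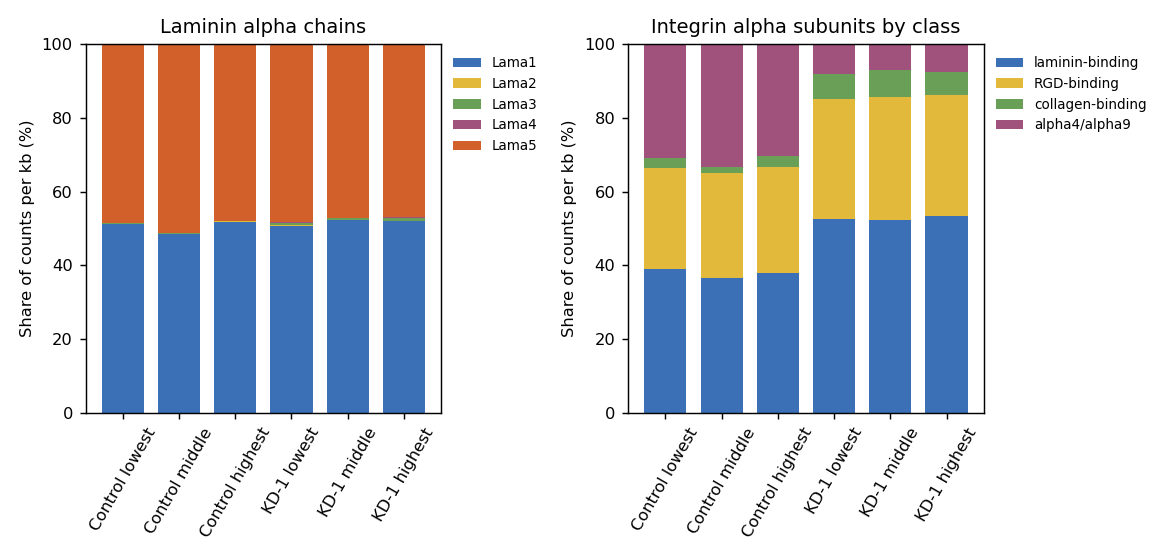
Share of counts per kb in percent, with 1 stacked bar per library, for the laminin alpha chains (left) and for the integrin alpha subunits summed by ligand class (right). The laminin bars look alike in both groups, whereas the class of *Itga4* and *Itga9* has a mean share of 31.6% in Control and 7.60% in KD-1.

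Among the beta subunits, *Itgb1* (ENSMUSG00000025809, chr8:129411876-129460618), the common partner of most matrix-binding alpha subunits, was the highest by a wide margin. It had 300.2, 279.8 and 293 CPM in Control and 185, 176 and 178 CPM in KD-1. It was 1.62-fold lower without overlap (log2 fold change -0.69 ± 0.05 SE, adjusted p = 1.0e-05, edgeR). *Itgb5* (chr16:33649988-33771137), a vitronectin receptor partner of *Itgav*, had 19.3, 23.7 and 20.5 CPM against 9.04, 9.15 and 8.95 CPM and was 2.34-fold lower (log2 fold change -1.23 ± 0.10 SE, adjusted p = 9.9e-06, edgeR).

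The *Itgav* partners *Itgb8* and *Itgb3* were higher. *Itgb8* (ENSMUSG00000025321, chr12:119121748-119202584), whose dimer with *Itgav* activates latent TGF-beta, had 16.3, 11.8 and 14.5 CPM in Control and 29.5, 32.1 and 31.7 CPM in KD-1. It was 2.20-fold higher (log2 fold change 1.14 ± 0.11 SE, adjusted p = 3.7e-05, edgeR). *Itgb3* (chr11:104498826-104561302), the beta subunit of the vitronectin and platelet receptors, was 2.14-fold higher, with 2.17, 2.07 and 3.03 CPM against 5.37, 4.76 and 5.71 CPM (log2 fold change 1.1 ± 0.18 SE, adjusted p = 7.8e-04, edgeR). The groups did not overlap for either gene. As the sum of these changes, *Itgb1* went from 90.4% ± 0.634 to 84.9% ± 0.558 of the beta signal per kb, *Itgb8* from 2.33% to 7.78%, *Itgb3* from 0.679% to 2.25% and *Itgb5* from 5.57% to 3.61%. The remaining beta subunits were at most 1.21 CPM in every library and were not called: *Itgb2*, of leukocytes, had a log2 fold change of -0.76 ± 0.34 SE (adjusted p = 0.077, edgeR), *Itgb4*, of hemidesmosomes, -0.01 ± 0.40 SE, and *Itgb7*, of gut-homing lymphocytes, 0.21 ± 0.38 SE. *Itgb2* passed the threshold in limma-voom (-0.80, adjusted p = 0.043) and in edgeR with at least 10 counts required in every library (-0.74, adjusted p = 0.039). *Itgb6*, of wounded epithelia, had 3 counts in each of 2 KD-1 libraries and none elsewhere, and did not pass the filter.

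**Figure D4:**
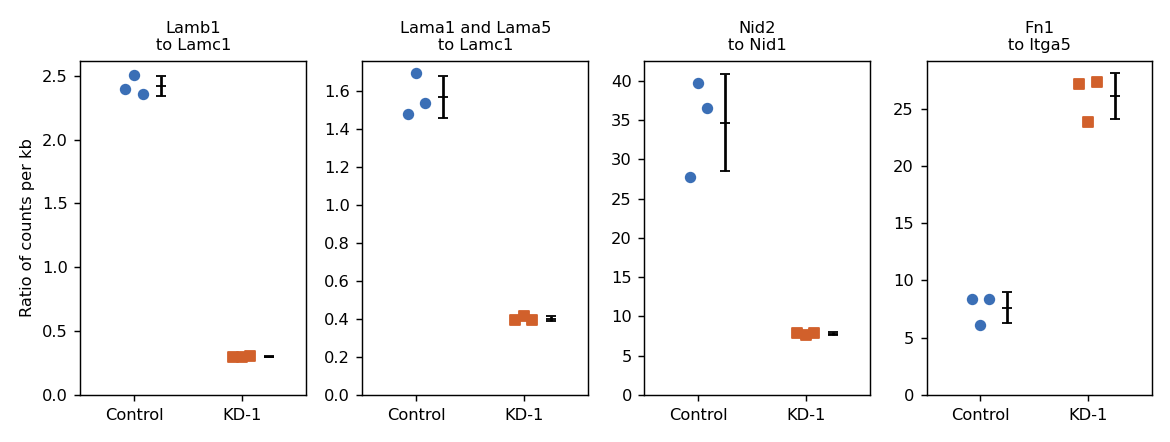
4 ratios of member genes in counts per kb on linear axes that start at 0, with 1 point per library (circles Control, squares KD-1) and the mean ± SD of each group beside them (n = 3). *Lamb1* to *Lamc1* lies near 2.42 in Control and near 0.299 in KD-1, and *Fn1* to *Itga5* near 7.61 and 26.1.

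The 3 members on chromosome 1 (*Lamc1*, *Lamb3* and *Fn1*) had 2 called higher and 1 not called. Off chromosome 1, the 30 tested members had 6 called higher and 14 lower, with a median log2 fold change of -0.67. The median was -0.05 for the 13609 tested autosomal genes off chromosome 1. The 66.7% of these members called can be read beside the 37.7% of all tested genes, as a description only. That 37.7% includes the genes of chromosome 1, and the share without them was not computed.

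Genes around the members were read from 4 lists. The share called in each can be read beside the 37.7% of all tested genes, and its median beside their -0.01, as a description only. The cytoplasmic adhesome holds the talins, kindlins, kinases and actin linkers that join integrins to the cytoskeleton. Of 28 tested genes, 2 were called higher, 8 lower and 18 were not called (35.7% called, median log2 fold change -0.24). That share is close to the one over all tested genes. The rises were *Fermt1*, the epithelial kindlin that activates integrins, with 0, 5 and 9 counts in Control and 331, 336 and 594 counts in KD-1 (log2 fold change 5.87), and *Tns3*, a tensin, with means of 37.9 and 133 CPM (1.81). The largest falls were those of *Tns2* (-3.10), of *Tgfb1i1*, which encodes the paxillin relative HIC-5 (-1.73), and of *Zyx*, which encodes zyxin (-1.55). The other 5 called lower, named after their values were seen, were *Tln1*, which encodes talin (-0.86), *Ilk*, which encodes the integrin-linked kinase (-0.83), *Bcar1* (-0.86), *Src* (-0.65) and the kindlin gene *Fermt3* (-0.81).

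Other basement membrane genes and non-integrin laminin receptors had 5 called higher and 6 lower of 21 tested (52.4% called, median -0.20). The 3 largest falls were those of *Smoc1*, a matricellular protein (174 to 15.9 CPM, log2 fold change -3.45), *Col4a1*, a chain of the collagen IV network (76.3 to 7.09 CPM, -3.43), and *Egflam*, which encodes pikachurin, a dystroglycan ligand (12.6 to 1.30 CPM, -3.25). The rises included *Sdc4*, a syndecan that acts with integrins at focal adhesions (19.4 to 55.3 CPM, log2 fold change 1.51), and *Smoc2*, a relative of *Smoc1* (1.1).

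Other integrin ligands and fibronectin-associated matrix had 4 called higher and 8 lower of 14 tested (85.7% called, median log2 fold change -1.21). Falls were led by *Vtn*, which encodes vitronectin (6.75 to 0.219 CPM, log2 fold change -5.01), *Tnc*, which encodes the *Itga9* ligand tenascin-C (2.72 to 0.0929 CPM, -4.90), and *Fbn2*, a fibrillin (228 to 11.7 CPM, -4.29). The rises included *Fbln2*, a fibulin (0.133 to 0.970 CPM, log2 fold change 2.73), and *Nov*, a CCN family ligand (0.106 to 0.633 CPM, 2.63), both on few counts. *Spp1*, which encodes osteopontin, an *Itgav* and *Itga9* ligand, also rose (39.9 to 190.7 CPM, 2.25). The *Itga9* ligands *Tnc* and *Spp1* moved in different directions. Integrin subunits outside the member list had 1 called higher of 3 tested (33.3% called, median 0.66): *Itgal*, of leukocytes, at 0.245 and 1.17 CPM (2.29).

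**Figure D5:**
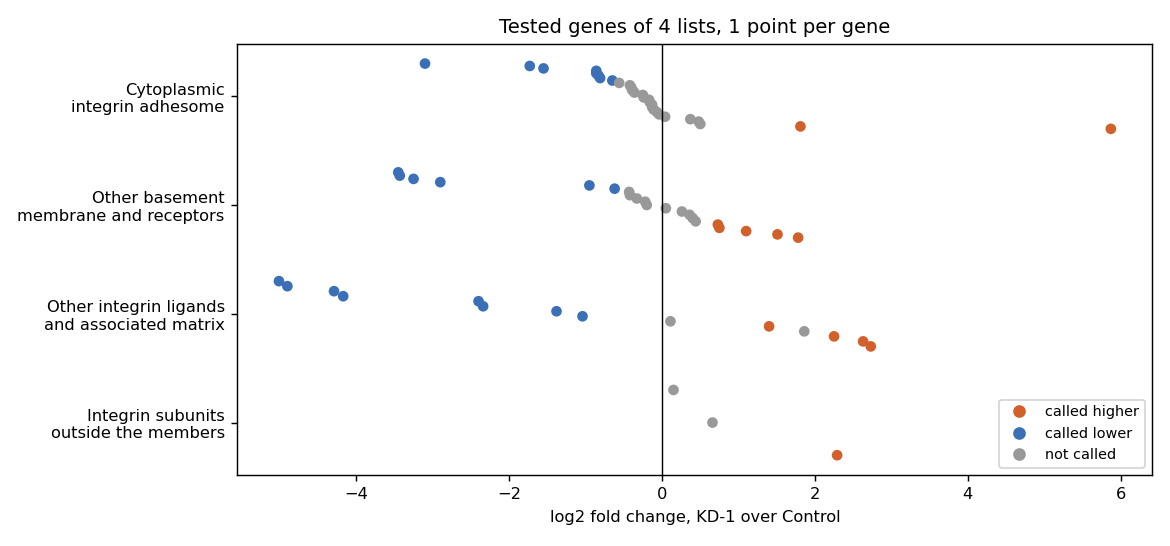
Log2 fold change of each tested gene in 4 lists of genes around the members, 1 point per gene, with called genes coloured by direction. Most other integrin ligands lie left of 0, with a list median of -1.21, and most adhesome genes lie near 0, with *Fermt1* at 5.87.

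Cell type markers moved with the groups, and their part in the values above was not tested. Of the somite and paraxial mesoderm list, 8 of 8 tested were called lower, and their summed level was between 519 and 598 CPM in Control and between 45.5 and 46.0 CPM in KD-1. Of the naive pluripotency list, 6 of 7 were called higher (421.3 to 469.3 against 1379 to 1415 CPM). The epithelial list had 2 higher and 2 lower of 6 tested (50.5 to 64.7 against 166 to 173 CPM). Genes of this list, named after their values were seen, went both ways. Most of the sum was *Cdh1* (35.6 against 122.9 CPM) and *Epcam* (10.6 against 38.8 CPM), whereas *Krt8* (log2 fold change -1.59) and *Krt18* (-1.11) were lower. The neural list had 3 of 5 higher (154.5 to 157.5 against 219.5 to 226.3 CPM). *Nes*, the largest part of that sum and named after its values were seen, was not called (114.7 against 84.7 CPM, log2 fold change -0.44). The endothelial list had 2 higher and 1 lower of 4 (18.1 to 19.0 against 33.8 to 35.9 CPM). Its genes, named after their values were seen, were divided. Most of the sum was *Pecam1* (14.5 against 29.4 CPM), and *Tek* was also higher (log2 fold change 2.32), whereas *Kdr* was lower (-0.83). *Cdh5* (7, 8 and 21 counts against 1, 1 and 2) and *Emcn* (3, 12 and 8 against 0, 0 and 0) did not pass the filter. The endoderm list had 1 higher and 2 lower of 3 (10.8 to 17.0 against 5.92 to 6.92 CPM) and the feeder fibroblast list 3 of 4 lower (8.34 to 9.15 against 0.818 to 1.00 CPM). Only 3 of the 8 endoderm genes passed the filter. Most of the endoderm sum was *Dab2* (11.45 against 5.34 CPM), named after its values were seen, as were *Sox17* and *Foxa2*. *Sox17* (4, 9 and 9 counts against 0, 0 and 1) and *Foxa2* (2, 1 and 1 against 6, 5 and 9) did not pass the filter. Of the blood and megakaryocyte list, 1 of 2 tested was called lower (1.01 to 1.53 against 0.322 to 0.549 CPM), and its defining platelet markers *Gp9* and *Pf4* had no count in any library.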

How the data were processed

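Total RNA of day 5 gastruloids was sequenced, and the authors deposited 1 table of estimated counts per gene, in whole numbers without normalization, made with Salmon (version 1.1) after bcl2fastq. The strand setting and genome build of their gene model are not given in the sources used here, so overlapping genes (9 of the 22 called members) may share reads. Columns were grouped by their names. Genes were named from GENCODE vM39 (GRCm39), which matched 35222 of 35565 identifiers. edgeR (version 4.0.16, R 4.3.3) tested KD-1 against Control with filterByExpr (15110 genes kept), TMM normalization, a robust quasi-likelihood fit and Benjamini-Hochberg adjustment. The biological coefficient of variation was 10.6%. Levels per kb used union exon lengths of all annotated isoforms and are approximate. Pool shares and ratios were compared by two-sided exact permutation tests.

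On simulated data with 200 changed genes among the 15110, edgeR called 198 of them and 5 unchanged ones. The changed genes were drawn from well-counted genes only, and their median absolute log2 fold change was 1.496. The simulation therefore does not cover members with few counts or near the threshold. Each pair within a group differed beyond sampling noise (chi-square over degrees of freedom 4.85 or more), so none was counted as a duplicate. Every member is named. From each list of pathway genes, up to 3 called genes that rose most and 3 that fell most are named, except 1 that is not reported here, and any other gene is said to be chosen after its values were seen. Members, lists and tests were chosen with earlier results of these data known. DESeq2 (version 1.42.0), limma-voom (limma version 3.58.1), other normalizations, filters and thresholds, and leaving out each library were the alternatives.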

Additional observations from a re-analysis of the deposited data

How the results depend on the processing

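Of the 22 called members, 17 kept their call whichever library was left out, 21 under RLE, upper-quartile and no composition normalization, and 21 with DESeq2. No member with a call reversed its direction in any alternative. The number of members called higher (8) fell to 4 when edgeR tested against a 1.5-fold change (glmTreat), and was 6 to 7 with a library left out. The number called lower (14) fell to 9 with an absolute log2 fold change over 1, and was 12 to 16 with a library left out. With limma-voom, 9 members were called higher and 17 lower. Relative to the median of chromosome 1, a choice that removes the shift of that chromosome, *Lamc1* (0.12) and *Fn1* (0.24) were no longer past the threshold. Calls near the threshold also moved with other settings, such as *Hspg2* without composition normalization (-0.58) and *Lamb3* with RLE normalization (1.26, then called), and the cause was not tested.

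Pool shares depend on the length used. With the longest transcript and with no length correction, in percentage points of KD-1 minus Control, the difference was 11.57 and 9.32 for the laminin-binding class, 2.93 and 3.65 for the RGD-binding class, -19.63 and -20.95 for the class of *Itga4* and *Itga9*, and 0.37 and 0.28 for *Lama4*. It was 7.98 for the collagen-binding class with no length correction. The ratios and their alternatives were chosen after seeing the data. The log2 ratio of *Itgb1* to the other beta subunits fell by 0.74, or by 0.94 with no length correction. No paired analysis was possible because the number suffixes of the columns do not correspond to the replicate numbers of the sample labels. The scaling moved the median of all genes by less than 0.1 on the log2 scale. Members under 1 CPM are limited by depth, and with 3 libraries a group no permutation test could pass the threshold.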
